A study of Drosophila melanogaster with 9 samples.

Results

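Gene expression in fruit flies (Drosophila melanogaster) labelled as an OGA mutant was compared with that in flies labelled as wild type, on Affymetrix Drosophila_2 arrays. The comparison used 6 of the 9 arrays of the study by genotype label: 3 of the OGA mutant and 3 of wild type. The other 3 arrays, from flies labelled as an SXC mutant, entered the same statistical model and are given beside the results. Genotype is the only difference between the groups that the labels give: all carry total RNA extracted with Trizol, with no treatment named. No allele, parental strain, tissue, sex, stage or age is named, so the labels do not say what kind of lesion the OGA mutant carries. They also do not say whether the arrays of a group came from separate animals, and the p-values may therefore measure technical spread alone. All 18769 probe sets other than the array's own controls were tested, and 13647 of them were listed with a single gene (11982 genes).

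O-GlcNAc is a single sugar, N-acetylglucosamine, that is attached to serines and threonines of nuclear and cytoplasmic proteins and removed again. The transferase that attaches it is encoded in the fly by sxc (super sex combs), a gene first known from the Polycomb group, and the O-GlcNAcase that removes it is encoded by Oga. The sugar donor, UDP-GlcNAc, is made from glucose by the hexosamine pathway, and for this reason O-GlcNAc is studied as a link between nutrition and gene regulation. The title of the series places O-GlcNAcase in nutrient-responsive oogenesis, the making of eggs, and in epigenetic regulation.

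The levels are log2 values as deposited, with array medians of 5.97 to 6.02 on the 6 arrays. Marker lists for tissues were examined because no tissue is labelled. A level depends on the probes as well as on the transcript, so these values place the lists only roughly. The list of haemocyte (blood cell) and basement membrane genes had a median level of 12.81 in wild type and 12.84 in the OGA mutant, and 19 of its 21 genes were above 9. The array medians of this list ran from 12.63 to 12.81 in wild type and from 12.61 to 12.92 in the mutant. Hemese (He), a surface protein of blood cells, was at 14.12 ± 0.10 in wild type and 14.13 ± 0.02 in the mutant, and the phagocytic receptor gene NimC1 at 12.81 ± 0.16 and 12.84 ± 0.08 (SD, n = 3 throughout). Genes known from blood cells were thus at high levels in both groups.

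The eggshell list had a median level of 5.56 in wild type and 5.57 in the mutant, below the median of all tested probe sets, and 23 of its 30 genes were under 6. Its array medians ran from 5.42 to 5.62 in wild type and from 5.51 to 5.69 in the mutant. The germline helicase gene vas was at 4.89 ± 0.11 and 4.86 ± 0.05, the gene bam, which drives germ cells to differentiate, at 4.88 ± 0.14 and 4.98 ± 0.02, and the oocyte RNA-binding protein gene orb at 4.11 ± 0.04 and 4.18 ± 0.05. The yolk protein gene Yp1 was at 4.54 ± 0.07 and 4.66 ± 0.15, the lowest of the 8 measured genes of the yolk list. The yolk protein genes Yp2 and Yp3 were at 6.34 and 7.32 in wild type. The yolk list had a median level of 6.83 in wild type, with 3 of its 8 genes under 6 and 2 above 9. Other genes known from the germline were at higher levels. The germline stem cell and cyst list had a median of 9.96 in wild type, with 15 of 25 genes above 9, the piRNA list 9.96, with 22 of 30 above 9, and the oocyte polarity list 10.28, with 14 of 20 above 9. Among them were aub (11.07 ± 0.09 in wild type and 11.05 ± 0.12 in the mutant) and mael (10.88 ± 0.06 and 10.96 ± 0.08) of the piRNA pathway, and gurken (grk, 11.14 ± 0.08 and 11.26 ± 0.08). These lists also held 6, 2 and 4 genes under 6, in that order. Besides vas, bam and orb, they included otu (4.38 in wild type and 4.18 in the mutant) and ovo (4.21 and 4.13). The oocyte genes osk (5.80 and 5.89) and bcd (5.91 and 5.96) were also among them. The lists named for the ovary thus differed among themselves and within themselves. Eggshell genes, vas, bam, orb, otu, ovo, osk and bcd were low and many piRNA and oocyte genes high, in both groups alike. Lists for muscle (median 5.58 in wild type), neurons (5.53), midgut digestion (5.43), testis (5.01) and the male accessory gland (4.70) were also low, and their medians differed by at most 0.06 between the groups. In RNA from a mixture of cells, fewer cells of a type and less RNA per cell cannot be told apart.

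One array stood apart. Replicate 3 of the OGA mutant had 26 probe sets that exceeded the other 8 arrays by over 1 log2 unit. The other 5 arrays of the 2 groups had 0 such probe sets, and SXC mutant replicate 1 had 3. The spread of values around the group mean was 0.126 (SD over probe sets) on this array, 0.103 and 0.094 on the other mutant arrays, and 0.072 to 0.093 on the wild-type arrays. The 4 bacterial control transcripts on the array (dap, lys, phe and thr) were also brightest there: dap was at 8.60, against 7.82 and 8.13 on the other mutant arrays and 7.78 to 7.91 in wild type. Results that rest on this array are given below with and without it.

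Expression of Oga itself fell in the OGA mutant, and this was the single change called over the whole array. Its probe set, on chromosome 3R, was at 10.13, 9.68 and 9.88 in wild type and at 8.88, 8.90 and 8.75 in the mutant. All mutant arrays lay below all wild-type arrays, with a gap larger than the spread within either group. The log2 difference was −1.05 (SE 0.10, 95% interval −1.28 to −0.82), which is 2.07-fold lower (adjusted p = 0.0114, limma with Benjamini-Hochberg adjustment over all probe sets). A signal of 8.84 ± 0.08 remained. The array holds 1 probe set for Oga, and no file used here says whether it lies inside or outside the lesion.

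The SXC mutant arrays gave a second set of arrays against which Oga could be compared. They were at 9.82, 9.81 and 9.99, inside the wild-type range, and the OGA mutant lay lower than these by 1.03 on the log2 scale (log2 −1.03, SE 0.10, adjusted p = 0.000711). In that comparison 7.9% of all probe sets were called. The call against wild type did not hold in every fit. Without OGA mutant replicate 1, 2 or 3 the adjusted p was 0.0877, 0.0828 or 0.0784, and without wild type replicate 3 it was 0.125. It was 0.142 with the 6 arrays fitted alone and 0.982 when variances were not moderated. The difference stayed between −1.16 and −0.93 under every alternative run.

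The transferase gene sxc, with 1 probe set, was at 11.84, 11.87 and 11.79 in wild type and 11.86, 11.91 and 11.90 in the OGA mutant, so the groups overlapped. The log2 difference was 0.05 (SE 0.06, 95% interval −0.07 to 0.18, adjusted p = 0.98). In the SXC mutant sxc was at 10.36, 10.32 and 10.36. The lower Oga transcript was thus accompanied by no detectable difference in the transcript of the opposing enzyme, within an interval that ends at 0.18.

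The list of O-GlcNAc cycling and hexosamine genes had 12 of 15 members measured. Of these, Oga fell, 0 rose and 11 did not pass the test. The share called over all probe sets was 0.00533% (1 of 18769). The median log2 difference of the list was 0.04, against −0.001 over all genes.

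The enzymes that make UDP-GlcNAc differed little. Gfat1 and Gfat2 encode the glutamine:fructose-6-phosphate aminotransferases that commit sugar to the pathway. Gfat2 was at 12.03, 11.96 and 11.96 in wild type and 12.05, 12.08 and 12.25 in the mutant. Its groups did not overlap, but the difference of 0.15 (95% interval −0.02 to 0.31) did not pass the test (adjusted p = 0.98, limma), and it was 0.09 without OGA mutant replicate 3. Gfat1 differed by 0.04 and overlapped between the groups. Gnpnat, which encodes the acetyltransferase of the next step, differed by 0.03 from wild type. The gene was higher in the OGA than in the SXC mutant (log2 0.36, adjusted p = 0.0111, limma): its SXC arrays were at 10.48, 10.47 and 10.46, and its OGA mutant arrays at 10.86, 10.91 and 10.73.

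The last step of the pathway is catalysed by the UDP-GlcNAc pyrophosphorylase encoded by mummy (mmy). This gene was at 10.74, 10.74 and 10.72 in wild type and 10.95, 10.76 and 11 in the mutant. The mutant arrays all lay above, by 0.17 on average (95% interval 0.02 to 0.33), with an unadjusted p of 0.0341 and an adjusted p of 0.98 from limma. Against the SXC mutant mmy was higher by 0.26 (adjusted p = 0.0498). Oscillin, which encodes a glucosamine-6-phosphate deaminase that runs the first step backwards, was at 9.03, 8.99 and 8.90 in wild type and 8.65, 8.90 and 8.79 in the mutant. Its difference of −0.19 (95% interval −0.36 to −0.03) likewise had an adjusted p of 0.98. The OGA mutant arrays of Oscillin reached 8.90, the value of the lowest wild-type array at this rounding. In the SXC mutant Oscillin was at 8.58, 8.49 and 8.50, a difference from wild type of −0.45 (adjusted p = 0.00504, limma). It was thus lower in both mutants.

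The remaining measured members were the salvage kinase gene Nagk (difference −0.00), the glycolytic isomerase gene Pgi (0.02), the glycoprotein folding sensor gene Uggt (−0.08) and the hexosaminidase genes Hexo2 (0.07) and fdl (0.12), which act on other glycans. None of them passed the test (all adjusted p 0.98 or above in limma). A separate list of 17 enzymes that use UDP-GlcNAc in N-linked and other glycans and in chitin had a median of 0.00 and 0 members called. Its members with the smallest p were Mgat1, which starts complex N-glycans, at 0.17 (0.05 without OGA mutant replicate 3), and the chitin synthase gene kkv at −0.09. The plot of the 12 genes of the first list shows the gap of Oga beside the far smaller differences of the others. Of these, Gfat2, mmy, Hexo2 and Oscillin also had groups that did not overlap. Over all probe sets, 5.09% had the OGA mutant arrays above all wild-type arrays and 4.24% below them.

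**Figure D1:**
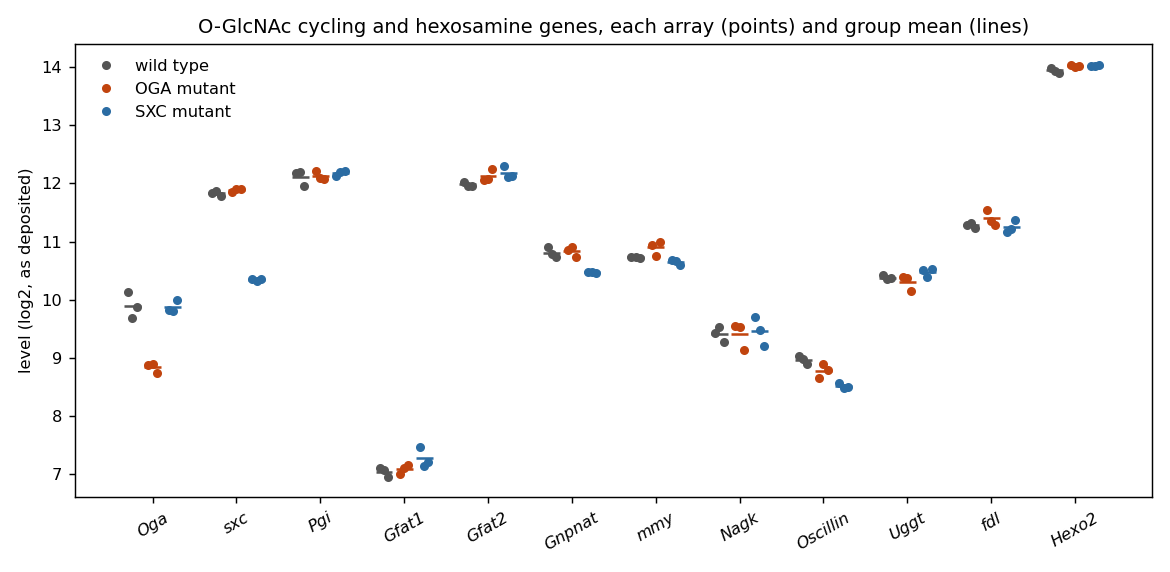
Level (log2, as deposited) of the 12 measured genes of O-GlcNAc cycling and the hexosamine pathway on each of the 9 arrays (points) with the mean of each group (lines). The 3 OGA mutant arrays of Oga lie between 8.75 and 8.90, below wild type (9.68 to 10.13), while sxc is low in the SXC mutant alone.

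Over the array as a whole the differences were small. Log2 differences had a 5th percentile of −0.133 and a 95th of 0.167, with a median size of 0.0581 and a median SE of 0.0804. The 95% interval lay wholly inside a 1.5-fold difference for 98.5% of probe sets and inside 2-fold for 99.8%. An unadjusted p under 0.05 was reached by 4.03% of probe sets, 518 higher and 238 lower in the mutant. Without OGA mutant replicate 3 these counts were 300 higher and 204 lower. All 3 mutant arrays lay above all 3 wild-type arrays for 5.09% of probe sets and below them for 4.24%. Only Oga differed by over 2-fold, and the next lowest difference of any probe set was −0.37.

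**Figure D2:**
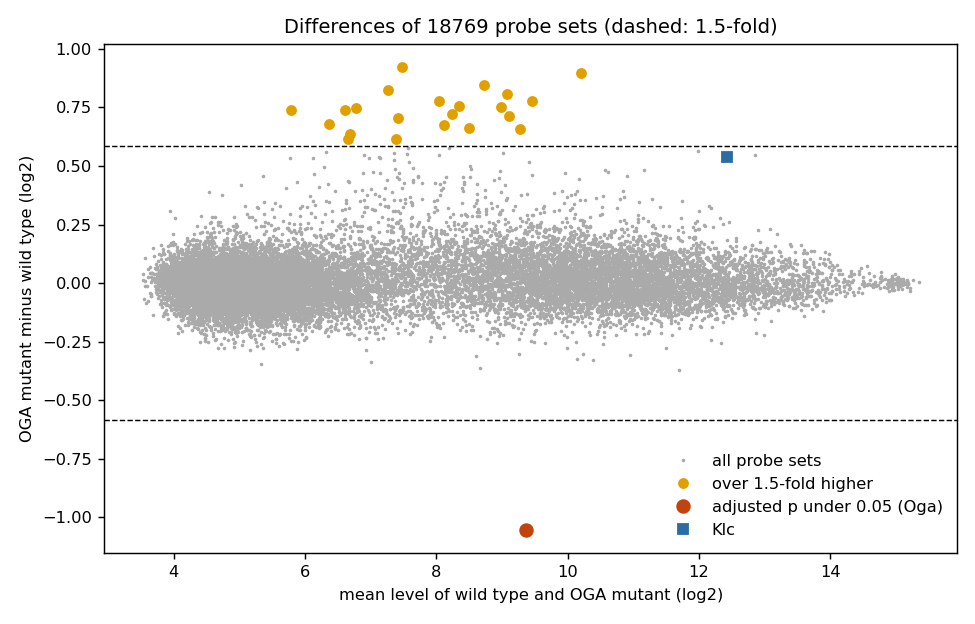
Log2 difference of OGA mutant minus wild type (vertical axis) against the mean level of both groups (log2, horizontal axis) for all 18769 probe sets, with dashed lines at 1.5-fold. Oga at −1.05 lies apart from all other probe sets, 22 probe sets are over 1.5-fold higher, and Klc (0.54) lies just under that line.

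After Oga, the smallest p belonged to Klc, which encodes the light chain of kinesin-1, the motor that carries cargo along microtubules. It was at 12.17, 12.28 and 12.02 in wild type and 12.64, 12.79 and 12.65 in the OGA mutant, so the groups were apart. The difference of 0.54 (SE 0.08, 95% interval 0.37 to 0.71) had an adjusted p of 0.19 in limma, and of 0.00981 when the variance prior followed intensity and was made robust. Without OGA mutant replicate 3 it was 0.56. In the SXC mutant Klc was at 12.93, 12.98 and 12.97, and the mutants differed by −0.26 (adjusted p = 0.0597). Klc thus lay higher in both mutants, which share their wild-type arrays.

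The 10 probe sets with the smallest p comprised Oga, 8 other named genes and 1 unnamed probe set, and 9 of these 10 were higher in the mutant. Apart from Oga and Klc all had an adjusted p of 0.98 in limma. Imp, an RNA-binding protein gene, was at 10.51, 10.68 and 10.75 in wild type and 11.14, 10.92 and 11.06 in the mutant (difference 0.40, 95% interval 0.22 to 0.57). The gene chinmo, which encodes a BTB zinc-finger transcription factor, was at 9.62, 9.76 and 9.78 and at 10.05, 10.01 and 10.28 (0.39, 95% interval 0.22 to 0.57). The transcriptional repressor gene capicua (cic) was at 8.64, 8.68 and 8.90 and at 9.27, 9.08 and 9.20 (0.45, 95% interval 0.21 to 0.68). For these genes the mutant arrays lay above wild type throughout.

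Their other probe sets did not all show the same size. Imp had 3 more probe sets with differences of 0.35, 0.16 and 0.04. For chinmo the others were at −0.02 and 0.19, and for cic the other was at 0.05. The remaining genes with the smallest p were Skel (0.26), the kinesin gene Kif3C on chromosome 4 (0.33), Coq8, a kinase-like gene of coenzyme Q synthesis (0.39), and mtd (mustard, 0.40). Without OGA mutant replicate 3 these were 0.26, 0.26, 0.30 and 0.28. Skel (4.42 in wild type) and Kif3C (4.93) lay below the median level of all tested probe sets. Other probe sets of Skel differed by 0.02 and 0.08, the latter being the brighter. Those of mtd differed by 0.32 and, for its brightest, by 0.12. Kif3C and Coq8 had 1 probe set each. Of the 8 named genes other than Oga, mtd differed between the mutants (log2 0.66 higher in OGA than in SXC, adjusted p = 0.00393). In contrast, cic (0.02), chinmo (−0.11) and Imp (0.21) did not pass that test. Against the same wild-type arrays the SXC mutant differed by 0.43 for cic (adjusted p = 0.0314, limma) and 0.51 for chinmo (adjusted p = 0.00432, limma). It differed by 0.18 for Imp (adjusted p = 0.204, limma) and by −0.26 for mtd (adjusted p = 0.147, limma).

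Differences over 1.5-fold were seen for 23 probe sets (0.123%): Oga, which was lower, and 22 that were higher. None of the 22 passed the test, and all had their highest mutant value on OGA mutant replicate 3, and 19 exceeded the other 8 arrays there by over 1 log2 unit. Their median difference was 0.74 with that array and 0.21 without it (range 0.02 to 0.47), and without it 0 probe sets were over 1.5-fold higher. Among probe sets with 1 gene, groups that did not overlap and a level above the median, the 12 largest were wdb, AMPdeam, Aptx, Tpst, CG4849, nuf, CTCF, prage, spri, CG8765, Fem-1 and scaf6.

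The gene wdb (widerborst), which encodes a regulatory subunit of protein phosphatase 2A, had the largest difference. Its probe set was at 7.13, 7.02 and 6.91 in wild type and at 7.40, 7.35 and 9.08 in the mutant. The difference was 0.92 (95% interval 0.15 to 1.70), and 0.36 without replicate 3. AMPdeam, the gene of AMP deaminase, was at 8.53, 8.34 and 8.06 and at 8.59, 8.58 and 10.29 (0.84, and 0.28 without replicate 3). Aptx, the gene of aprataxin, a DNA repair enzyme, was at 7.08, 6.85 and 6.60 and at 7.15, 7.22 and 8.64 (0.82, and 0.34 without it). CTCF, at 5.61, 5.59 and 7.29 in the mutant, met the rule on level only through replicate 3. In each case replicates 1 and 2 of the mutant were close to each other and replicate 3 was far above them.

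Each of these 12 genes had at least 1 more probe set, 22 in all, and these differed by 0.00 to 0.52. The other probe set with the highest level differed by 0.04 to 0.25, and for 11 of the 12 genes it was brighter than the one with the large difference. That of wdb was at 11.12, 11.22 and 11.29 in wild type and 11.54, 11.24 and 11.36 in the mutant. That of AMPdeam was at 12.03, 11.97 and 11.79 and at 11.96, 11.94 and 12.10. On the 6 arrays 16 of the 22 were highest on replicate 3, and 1 of them was so by over 1 log2 unit. That was a further probe set of Tpst, at 7.46, 7.34 and 7.16 in wild type and 7.46, 7.47 and 8.58 in the mutant. For prage the only other probe set had a mean level of 4.67, against 8.19 for the one with the large difference. At that level it says little. For the other 11 genes the large values of replicate 3 were thus not shared by the brightest other probe set. The part of the array in these values was not tested beyond leaving it out.

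**Figure D3:**
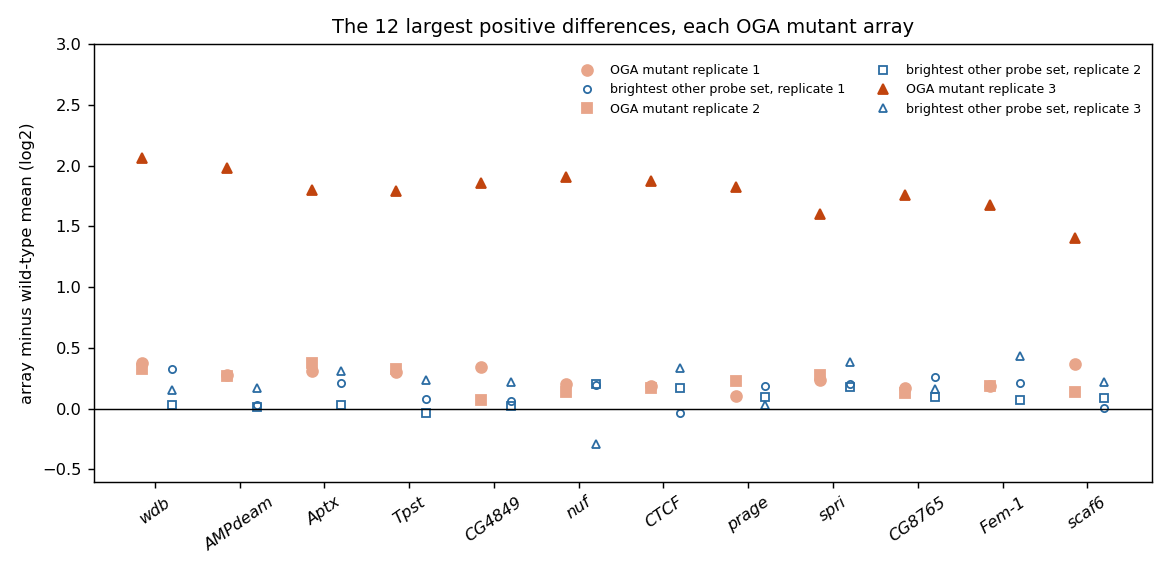
Value of each OGA mutant array minus the wild-type mean (log2) for the 12 genes with the largest positive differences, with the probe set that showed the difference filled and the brightest other probe set of the gene open. Replicate 3 (triangles) lies over 1 log2 unit above replicates 1 and 2 for the filled symbols of all 12 genes, and wdb without it differs by 0.36.

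The 12 largest negative differences after the same rule began with Oga and went on with CG11686, COX7AL, gem, CG42323, Elk, CG14810, eIF4E6, CG43103, CG8149, GstO1 and IA-2, at −0.32 to −0.22 after Oga. All but Oga had an adjusted p of 0.98 in limma. CG11686 was at 10.27, 10.35 and 10.27 in wild type and 9.94, 10.15 and 9.84 in the mutant (−0.32, 95% interval −0.55 to −0.10). CG43103 was at 10.84, 10.91 and 10.78 and at 10.47, 10.76 and 10.64 (−0.22, 95% interval −0.45 to 0.00). Both lay well under their SXC mutant values, and the mutants differed from each other, by −0.64 for CG11686 (adjusted p = 0.0054, limma) and by −0.96 for CG43103 (adjusted p = 0.000761, limma).

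Without replicate 3 the differences of the 11 genes after Oga were −0.27 to −0.13. The gene gem, which encodes a transcription factor of the grainyhead family, was at 12.27, 12.30 and 12.33 in wild type and 12.11, 11.98 and 12.08 in the mutant (−0.24, 95% interval −0.38 to −0.10, and −0.25 without replicate 3). The eIF4E-type cap-binding protein gene eIF4E6 was at 10.15, 10.07 and 10.11 and at 9.91, 9.97 and 9.75 (−0.23, 95% interval −0.38 to −0.08). Groups that did not overlap were a condition for naming these genes, and none passed the test of OGA mutant against wild type. Against the same wild-type arrays the SXC mutant differed by −0.27 for gem (adjusted p = 0.0274, limma). For eIF4E6 it differed by −0.45 (adjusted p = 0.00357, limma). Both genes were thus lower in both mutants.

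Gene lists chosen around the title (nutrient sensing, oogenesis, chromatin) and around other functions were then described. Lists and members were chosen with earlier results of these data known, so their counts are descriptions and not tests. Of 800 distinct listed genes measured, Oga alone was called, and 28 (3.5%, Oga included) had an unadjusted p under 0.05, against 3.88% of all genes. For 796 of the 800 the interval lay inside a 1.5-fold difference. The medians of the 37 lists ran from −0.09 to 0.07. In the paragraphs that follow, no gene other than Oga passed the adjusted test of OGA mutant against wild type, and values are given as they were measured.

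Nutrient-sensing genes came first because the title names nutrients. Of the insulin receptor pathway 11 genes of 23 were measured, with a median of 0.06, 9 positive, and 1 at an unadjusted p under 0.05. That gene was Akt, the kinase downstream of the insulin receptor, at 9.05, 9.27 and 9.40 in wild type and 9.51, 9.38 and 9.50 in the mutant (0.22, 95% interval 0.02 to 0.42), with overlapping groups. The transcription factor gene foxo, which insulin signalling restrains, differed by 0.24, and the receptor gene InR by 0.14. The list of TOR, AMPK and nutrient sensing had 24 genes with a median of 0.05, 19 of them positive. Its smallest p belonged to minidiscs (mnd), an amino acid transporter gene, at 11.69, 11.59 and 11.68 in wild type and 11.85, 11.73 and 12.04 in the mutant (0.22, and 0.14 without replicate 3).

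Of the germline stem cell and cyst genes 25 were measured, with a median of 0.03. An unadjusted p under 0.05 was reached by 3 higher and 1 lower gene. Sex-lethal (Sxl), the RNA-binding switch of sex determination, was at 9.90, 10.04 and 9.98 in wild type and 10.39, 10.16 and 10.24 in the mutant (0.30, 95% interval 0.11 to 0.48). The adducin gene hts was at 10.31, 10.24 and 10.07 and at 10.38, 10.46 and 10.62 (0.28, 95% interval 0.10 to 0.47). The signalling gene dpp differed by 0.17, and otu, at a level of 4.38 in wild type, by −0.20. The groups of Sxl, hts, dpp and otu did not overlap. Over all probe sets, 5.09% had the OGA mutant arrays above all wild-type arrays and 4.24% below them. In the SXC mutant Sxl differed from wild type by 0.43 (adjusted p = 0.0106, limma) and hts by 0.25 (adjusted p = 0.0937, limma). There dpp differed by 0.07 and otu by −0.01.

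Of the piRNA pathway, which silences transposons in the germline, 30 genes were measured with a median of 0.04 and 0 at an unadjusted p under 0.05. AGO3, an Argonaute of that pathway, had the smallest p of the list, at 0.18. The 20 measured genes of oocyte polarity had a median of 0.06, with 15 positive. Hrb27C, an RNA-binding protein gene, differed by 0.28 (95% interval 0.07 to 0.48), while grk, the ligand that sets the axes of the egg, differed by 0.12. The 30 eggshell genes had a median of 0.00 and 0 at an unadjusted p under 0.05. The 5th and 95th percentiles of all genes were −0.14 and 0.16. Sxl, hts, dpp, otu, AGO3 and Hrb27C lay outside that range and grk inside it. These genes were named for having the smallest p of their lists. A place outside the range was favoured by that choice and does not set the lists apart.

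Chromatin genes were described because the title names epigenetic regulation and because sxc belongs to the Polycomb group. The 19 measured Polycomb group genes had a median of 0.03, with 12 positive. The gene Pc, which encodes the Polycomb subunit that binds methylated histone H3, was at 8.54, 8.43 and 8.42 in wild type and 8.71, 8.59 and 8.74 in the mutant. Its difference was 0.22 (95% interval 0.07 to 0.37, unadjusted p = 0.0088 and adjusted p = 0.98 in limma), with groups that did not overlap, and it was 0.19 without replicate 3. In the SXC mutant Pc differed from the same wild-type arrays by 0.21 (adjusted p = 0.0868, limma). The 26 Trithorax group and H3K4 methylation genes had a median of 0.03 and 0 at an unadjusted p under 0.05. Mnn1, the menin gene, had the smallest p there, at 0.26, and was at 0.12 without replicate 3.

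The genes of large complexes differed by little. Of 58 genes of the mitochondrial respiratory chain 48 were negative, with a median of −0.04 and 0 at an unadjusted p under 0.05, where 50.3% of all genes were negative. Of 28 proteasome genes 22 were negative (median −0.03). Each array was also set against the wild-type means of the members. The respiratory chain medians were then −0.08, 0.00 and −0.04 on the OGA mutant arrays and −0.01, 0.00 and 0.01 in wild type. Those of the proteasome were −0.05, −0.05 and 0.01 in the mutant and 0.01, −0.05 and 0.03 in wild type. For both lists the arrays of the groups thus overlapped. The 28 measured ribosomal protein genes had a median of −0.00, with 17 negative, and the 27 nuclear pore genes a median of 0.00, with 13 negative. Genes of one complex are often regulated together, so these members are not independent. The respiratory chain and proteasome genes were short, with median gene lengths of 1148 and 1378 bp. With the trend of the difference with gene length, described below, removed from each array, 45 of the 58 respiratory chain genes and 16 of the 28 proteasome genes were negative.

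The list medians farthest from 0 belonged to immunity and to ecdysone. Of 26 antimicrobial and humoral immunity genes 20 were negative, with a median of −0.09, which was −0.06 without replicate 3. With each array set against the wild-type means, the medians were −0.09, −0.01 and −0.08 on the OGA mutant arrays. On the wild-type arrays they were −0.00, −0.00 and −0.02, so mutant replicate 2 lay inside the wild-type range. The drosomycin-like gene Drsl5 was at 5.60, 5.59 and 5.58 in wild type and 5.48, 5.48 and 5.38 in the mutant (−0.14). PGRP-LB, an enzyme that degrades bacterial peptidoglycan, differed by −0.18, and by −0.27 without replicate 3. Of 28 ecdysone genes 22 were positive, with a median of 0.07 both with and without replicate 3, and 3 had an unadjusted p under 0.05. The medians by array were 0.06, 0.06 and 0.07 in the mutant and 0.02, 0.01 and −0.03 in wild type.

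Those 3 ecdysone genes were the coactivator gene taiman (tai), the receptor partner gene ultraspiracle (usp) and sad, an enzyme of ecdysone synthesis. The level of sad was 5.42 in wild type, below the median of all tested probe sets, and 13 of the 28 listed genes were under 6. The gene tai was at 8.74, 8.62 and 8.47 in wild type and 8.92, 8.90 and 8.89 in the mutant (0.29, 95% interval 0.12 to 0.47). The gene usp was at 10.01, 10 and 9.94 and at 10.23, 10.08 and 10.31 (0.22, 95% interval 0.06 to 0.38). Both had groups that did not overlap. In the SXC mutant tai differed from wild type by 0.28 (adjusted p = 0.0569, limma) and usp by 0.09 (adjusted p = 0.554, limma). The ecdysone genes were long, with a median gene length of 20038 bp, and the immunity genes short (718.5 bp).

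Other lists were close to 0. Of 33 cell cycle and DNA replication genes, with a median of 0.04, CycD and the Cdc25 phosphatase gene twe had an unadjusted p under 0.05, each with a difference of 0.24. The level of twe was 5.62 in wild type, below the median of all tested probe sets. In this list 14 of 33 genes were called higher in the OGA than in the SXC mutant. Over all probe sets, rather than genes, 7.9% were called in that comparison, counting both directions. The list had a median of −0.29 in the SXC mutant against wild type. The 24 genes of the unfolded protein response had a median of 0.05, and its gene with the smallest p, sip3, differed by 0.35, and by 0.10 without OGA mutant replicate 3. The 47 detoxification genes had a median of −0.03. In this list 16 of 47 genes were called lower in the OGA than in the SXC mutant (7.9% of all probe sets called, both directions counted). Its median in the SXC mutant against wild type was 0.17. The 16 included the glutathione transferase gene GstE2 (−0.62, adjusted p = 0.000761, limma), which differed from wild type by −0.15. The 21 haemocyte and basement membrane genes had a median of 0.03 and 0 at an unadjusted p under 0.05.

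**Figure D4:**
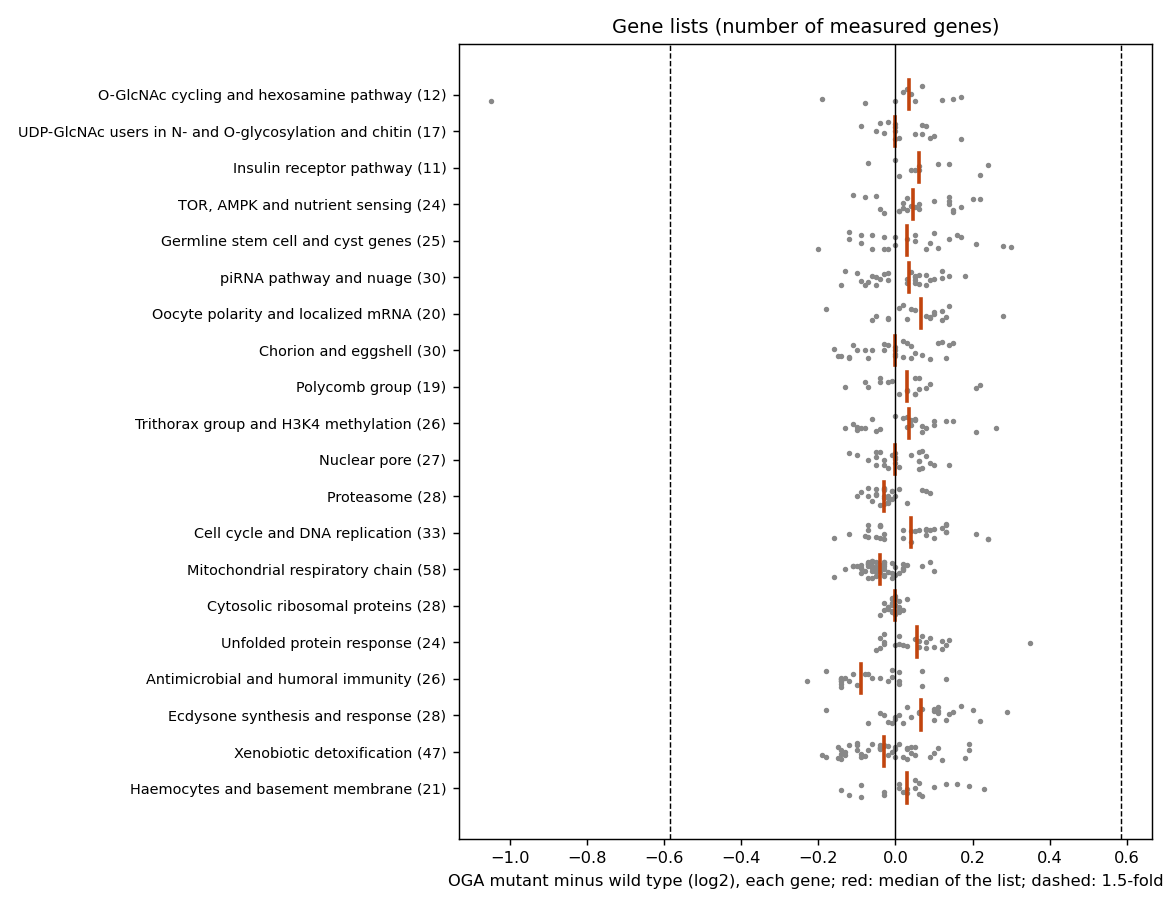
Log2 difference of OGA mutant minus wild type for each measured gene (points) of 20 gene lists, with the median of each list in red and dashed lines at 1.5-fold. Oga at −1.05 is the single gene outside those lines, and the medians run from −0.09 (immunity) to 0.07 (ecdysone).

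The neighbours of Oga on chromosome 3R were described because an allele can affect genes beside it. Among the 20 nearest measured genes, 10 on each side, the differences ran from −0.10 to 0.20 with a median of 0.02, and 9 were negative. None was called and 1 had an unadjusted p under 0.05, CG5810 (0.18). The lowest of them was CG3337 (−0.10), whose annotated span overlaps that of Oga. The genes beside it, Smyd5 (−0.04, and −0.12 without OGA mutant replicate 3), Ddrgk1 (−0.07) and ebony (e, 0.06), were likewise near 0. By chromosome arm the medians were −0.005 to 0.006 on X, 2L, 2R, 3L and 3R, and 0.028 over the 65 genes of chromosome 4. Of these 65 genes, 7 had an unadjusted p under 0.05. Over all genes the share was 3.88%, and on X it was 87 of 1873 genes.

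The differences moved with gene length. Across 11893 genes the difference correlated with log2 gene length at Pearson r = 0.26, and at 0.39 across the 5946 genes above the median level. All genes share the same 6 arrays, so this r is a description. Genes were put into 5 length bins of equal size. In the bin of the shortest genes 7 were higher and 67 lower at an unadjusted p under 0.05, and in that of the longest 139 were higher and 15 lower. Among genes above the median level the median difference was −0.07 in the shortest bin and 0.05 in the longest. The SXC mutant, set against the same wild-type arrays, had medians of −0.15 and 0.09 in these bins. The trend was thus not particular to the OGA mutant.

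The mutant arrays did not share 1 length pattern. In the shortest bin of these brighter genes the medians were −0.12, 0.00 and −0.08 on mutant replicates 1, 2 and 3, and in the longest bin 0.12, 0.06 and −0.02. Replicate 1 had the steepest slope with length, and without it r over all genes was 0.14. The median level of the longest bin minus that of the shortest, again among genes above the median level, was −0.95, −0.93 and −1.0 on the wild-type arrays and −0.68, −0.90 and −0.90 on the mutant arrays. These did not overlap, and the exact two-sided permutation test gave p = 0.1, the smallest that 3 against 3 arrays can give. Over all genes the same exact test gave p = 0.4. On the SXC mutant arrays the value among genes above the median level was −0.71, −0.71 and −0.53. Whether length had a part in the values of long genes such as tai, or of short ones such as those of immunity, was not tested for single genes. With the trend removed from each array the ecdysone median was 0.06 and the immunity median −0.07.

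Signs of RNA quality were read from the 3′ minus 5′ differences of 5 pairs of control probe sets. Exact two-sided permutation tests gave p-values of 0.2 to 1, in a design that cannot go below 0.1. The GAPDH pair was at 0.99 ± 0.11 in wild type and 1.0 ± 0.03 in the mutant, and the Act5C pair at 0.75 ± 0.03 and 0.67 ± 0.10 (SD, n = 3). On OGA mutant replicate 3 the Act5C pair was at 0.56, against 0.69 to 0.78 on the other 5 arrays. The ACTIN pair was there at −0.15, against −0.01 to 0.08, and the eIF4a pair at 0.01, against 0.20 to 0.31. These 3 pairs were thus lowest on that array, and the part of this in the array's other values was not tested.

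**Figure D5:**
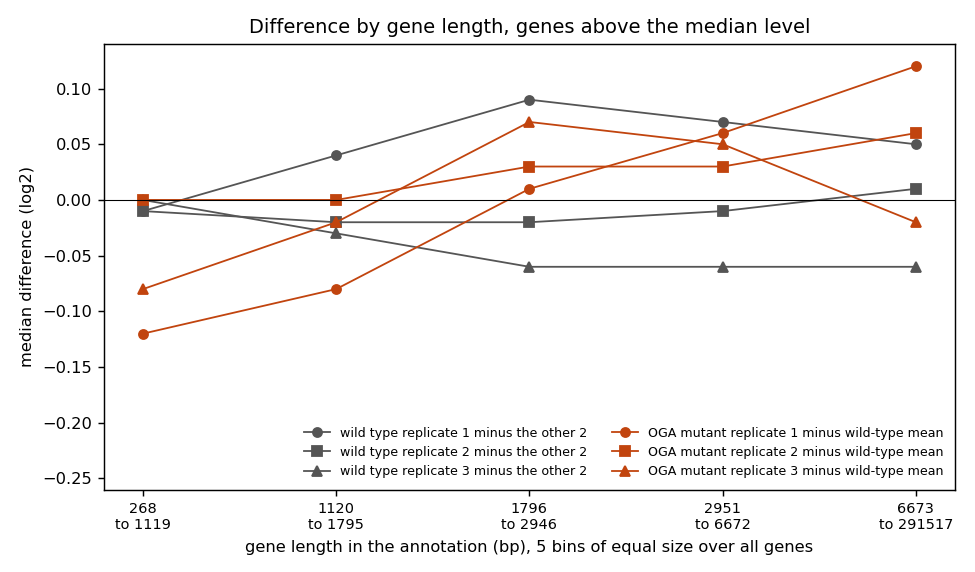
Median log2 difference by 5 bins of gene length (bp, shortest to longest) among genes above the median level, for each OGA mutant array minus the wild-type mean and each wild-type array minus the mean of the other 2. The mutant arrays run from −0.12 to 0.12 and the wild-type arrays from −0.06 to 0.09, and OGA mutant replicate 1 has the steepest slope.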

How the data were processed

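Total RNA was hybridised to Affymetrix Drosophila_2 arrays, 3 of each genotype by their labels. The authors deposited 1 log2 value per probe set and array; the scale was read from the values. The submitters' processing notes list MAS5, RMA and Partek without saying what each did; no source used here says which method produced the table. All sample columns were mapped (0 left over). The arrays' 183 control probe sets were left out of the tests.

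A group-means model was fitted over all 9 arrays with limma 3.58.1 in R 4.3.3 (6 residual degrees of freedom), with Benjamini-Hochberg adjustment over 18769 probe sets and calls at an adjusted p under 0.05. Intervals are moderated 95% intervals. No set test was run. Precision is limited by how few arrays there are. The fit was tested on simulated data.

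Probe sets were named through the platform table and a RefSeq annotation (Release 6 plus ISO1 MT; 103 single-gene probe sets had a gene not found in it); 402 had several genes and 4720 none. For lists, neighbours and length, a gene with several probe sets (1094 genes) took the one with the highest mean over all arrays. Members and the 37 lists were chosen with earlier results of these data known. Named genes were Oga and sxc, the O-GlcNAc list, the 12 largest differences each way (1 gene, groups apart, brighter mean above the median), the 10 smallest p, per list up to 4 members of smallest p, and 10 neighbours on each side of Oga. Marker genes of tissues and GstE2 were named beside these for their function. The alternatives tried are given in the closing section. Same-numbered arrays did not deviate together (correlations of their deviations from the group means −0.24, 0.25 and −0.04), so the numbers were not taken as pairs.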

Additional observations from a re-analysis of the deposited data

How the results depend on the processing

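The fall of Oga kept its direction in all 16 alternatives, with log2 differences of −1.16 to −0.93 (−1.16 to −0.94 with 1 array left out), and its call in 9. The call was lost with a replicate block (−1.05, adjusted p = 0.0579), with only the 6 arrays of both groups (−1.05, adjusted p = 0.142), with no moderation of the variances (−1.05, adjusted p = 0.982), and in 4 of the fits that left out 1 array, where the difference was −1.08 to −1.0. Those fits have fewer arrays, and the cause of the other losses was not tested. The number called was 2 with a robust prior that followed intensity (Oga and Klc), 0 with the replicate block, 0 with the 6 arrays alone, and 0 to 1 with 1 array left out; with no moderation the 1 call was Skel (adjusted p = 0.00601). The replicate block changed no other call. The following comparisons of counts and of length without single arrays were chosen after seeing the data. The 22 probe sets over 1.5-fold higher became 4 with array quality weights, 5 with 1 probe set per gene, and 0 (without OGA mutant replicate 3) to 62 (without OGA mutant replicate 2) with 1 array left out. The number at an unadjusted p under 0.05 (756) was 1188 with array weights, 468 with 1 probe set per gene, 459 with the length trend removed and 465 without wild type replicate 2. The length correlation over all genes (0.26) was 0.14 to 0.33 with 1 array left out; over brighter genes it was 0.39, and 0.16 to 0.58 with 1 mutant array left out. Values near 0 changed sign: Gfat1 (−0.00 with quantile normalization and without wild type replicate 3), Gnpnat (−0.01 when wild type replicate 3 or OGA mutant replicate 2 was omitted), Nagk (0.00 with median centring, and 0.01, 0.06 and 0.13 without single arrays), Pgi (−0.01 with array weights, −0.01 with the length trend removed, and −0.05 and −0.02 without single arrays) and Uggt (−0.12 to 0.00 with 1 array left out). Of the 340 list medians recomputed, 24 moved by more than the spread between arrays. The lists concerned are given with their range where arrays were left out, which can include values that did not move: for UDP-GlcNAc users, 0.05 with array weights and 0.05 to 0.06 without single arrays; for TOR, 0.01 with quantile normalization and 0.08 without an array; for germline genes, 0.00 with quantile normalization, 0.05 with dim probe sets left out, 0.05 with array weights and −0.01 to 0.05 without single arrays; for ribosomal proteins, 0.00 with median centring and 0.01 with the length trend removed; for the unfolded protein response, 0.02 with the length trend removed and 0.03 without an array; and for ecdysone, 0.11 over all probe sets of each gene and 0.04 to 0.07 without single arrays. Without single arrays the insulin median reached 0.09, oocyte polarity 0.03 to 0.07, Trithorax −0.02, immunity −0.13 to −0.06 and detoxification −0.08; the cause was not tested.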
